A study of Mus musculus with 14 samples.

Results

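The genes described here encode the nuclear subunits of the 5 complexes of oxidative phosphorylation. They are 81 of the 18194 genes that a probe set of 1 symbol measured on these arrays. They were chosen by symbol: Nduf genes for complex I (35), Sdha to Sdhd for complex II (4), Uqcr genes for complex III (8), Cox4 to Cox8 genes for complex IV (17) and Atp5 genes for complex V (17). Each gene was read from the probe set with its highest mean intensity over the 14 arrays, and pseudogenes were left out. The symbol decides the complex, so Ndufa4, which is now known as a subunit of complex IV, was counted under complex I, and Cox7a2l, a factor that joins complexes III and IV into supercomplexes, was counted under complex IV.

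The respiratory chain passes electrons from NADH (complex I) or succinate (complex II) through ubiquinone, complex III and cytochrome c to oxygen (complex IV), and the proton gradient this builds drives ATP synthesis by complex V. Most subunits are nuclear-encoded and imported, and the remaining ones, which are not among these genes, come from mitochondrial DNA and are made on mitochondrial ribosomes. Pluripotent cells rely heavily on glycolysis, and a turn towards respiration is a known feature of their differentiation. Several complex IV subunits exist as paralogues, of which some are used in heart and skeletal muscle (Cox6a2, Cox7a1, Cox8b), in testis (Cox6b2, Cox7b2, Cox8c) or in lung (Cox4i2).

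The study compared mouse embryonic stem cells (ESC) with embryoid bodies (EB), the aggregates in which such cells differentiate, in wild-type lines and in lines labelled TKO. TKO is read here as loss of all 3 Rb family genes, Rb1, Rbl1 and Rbl2, from the subject of the series; the labels give no alleles and no time of EB culture. The groups were WT ESC (3 arrays) and WT EB (3 arrays), each of the lines B21, J1 and R1, TKO ESC (3 arrays) of the lines 7-4-1, Dutch and Ta1-12, and TKO EB (5 arrays) of the lines 2-55-2, 14-14-4, 7-4-1, Dutch and Ta1-12. The series' text calls the arrays of a group biological replicates, and each array is a different line, so the spread within a group includes that between lines. Values per array below follow these orders of lines.

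Total RNA was measured on 1-colour Affymetrix arrays, and the values are deposited linear intensities, which are not comparable between probe sets. The highest value on an array was between 23976 and 25702. The RNA came from whole cultures, in which fewer cells of a type and less RNA per cell cannot be told apart. Rbl1 checks the genotype labels in part. It measured 694, 462 and 356 in WT ESC and 586, 1089.6 and 493 in WT EB, but 24.5, 250.3 and 493 in TKO ESC and 31.7, 15.9, 38.3, 377 and 1096 in TKO EB. The 2 arrays labelled TKO Ta1-12 thus lay at the WT level of Rbl1, and those labelled TKO Dutch lay near the lowest WT array. Rb1 and Rbl2 overlapped between the genotypes at both stages. The labels do not place these probe sets relative to the deletions, so directions drawn from the TKO groups are also given without line Ta1-12 where that changes a call. The 6 pluripotency markers summed to 48895 to 70416 in all ESC arrays. In WT EB they summed to 2854 to 3993, while the highest TKO EB array reached 50169. Pou5f1 measured 38.8, 32.8 and 55.2 in WT EB and 1542, 6133, 147, 7410.3 and 17.1 in TKO EB, so that the TKO EB arrays Dutch and 14-14-4 kept a large part of the stem cell level.

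As a set, the subunit genes changed little in level between ESC and EB. Of the 81 genes, 80 passed the filter on low values (3 or more arrays with a value over that array's 40th percentile). The one left out was Ndufb4, whose probe set averaged between 19 and 25 in each group. In WT EB against WT ESC, 76 of 80 (95%) differed by less than 2-fold, against 64.8% of all 14360 genes tested. In TKO EB against TKO ESC the count was 78 (97.5%), against 73.2% of all genes. The subunits are brighter than most genes, with a median level at percentile 96.6, so all genes are not a background of like level.

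Called means an adjusted p under 0.05 in limma, with Benjamini-Hochberg adjustment over all genes tested. In WT EB against WT ESC, 43.9% of all genes were called (26.5% higher in EB and 17.4% lower). All EB arrays were above all ESC arrays in 35.6% of all genes and below them in 25.3%, so the separations given below are common. Of the 80 subunit genes, 25 were called, 21 of them higher (26.2%) and 4 lower (5%). The median log2 fold change was 0.15, against 0.13 over all genes. The share of subunits that rose was close to the background, and the share that fell was under the background. Of the 2872 genes in the top 20% by mean level, 26.5% were called higher and 25% lower, with a median of -0.00048. The 71 subunits among them had 19 higher and 3 lower, with a median of 0.15, above that of the 2872 genes. With the median subunit at percentile 96.6 of all genes, this set was not closely matched in level either. After quantile normalization of the arrays, which moved the median of all genes from 0.13 to -0.069, 21 subunits were called, 13 higher and 8 lower. With the cell line as a block, 16 were called, 14 higher and 2 lower, all of them among the 25. Without WT EB B21 the count was 14 and without WT ESC J1 it was 16. The share of all genes called in each of these settings is not given here, so these counts do not single out the subunits.

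In WT EB, 15 of the 34 tested genes of complex I were called, or 44.1%, which is close to the 43.9% of all genes. Of these 13 rose (38.2%, against 26.5% of all genes) and 2 fell (5.88%, against 17.4%), with a median log2 fold change of 0.25. In complex II none was called (median 0.11), in complex III 1 rose (0.13), in complex IV 4 rose and 1 fell (0.077), and in complex V 3 rose and 1 fell (0.14). The difference between complexes was not tested. After quantile normalization 8 complex I genes were called higher and 2 lower, with a median of 0.13, the complex II median turned to -0.039, and complex IV had 2 higher and 3 lower. Of the 34 complex I genes, 22 were higher in EB in line B21, 30 in J1 and 30 in R1, where 56%, 56.4% and 53.5% of all genes were higher. The complex I median was 0.31 in J1 and 0.35 in R1, above the all-gene medians of 0.14 and 0.074, but in B21 it was 0.099, below the all-gene median of 0.17.

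**Figure D1:**
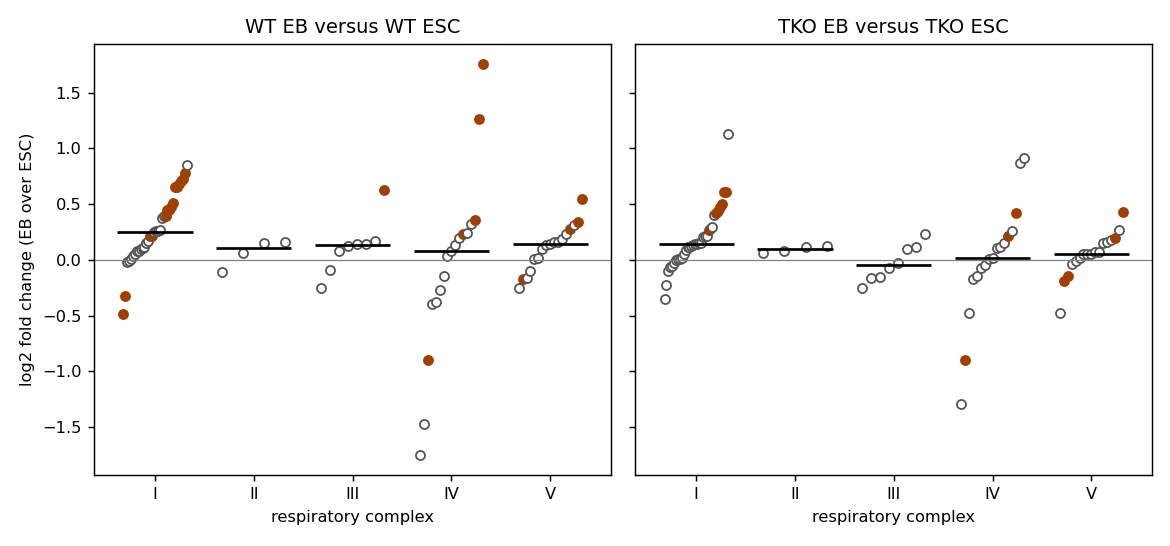
Each point is 1 subunit gene, placed at its log2 fold change of EB over ESC for WT lines (left) and TKO lines (right), by respiratory complex. Filled points were called, open points were not, and bars are medians: in WT the complex I median is 0.25 and the only called points above 1 are Cox6a2 and Cox8b, in complex IV.

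The electron entry arm of complex I moved in both directions. Its core subunits carry the flavin and the iron-sulfur clusters. Of the 6 nuclear core subunits measured, Ndufs8 and Ndufs3 rose in WT EB, Ndufs1 fell, and Ndufs7, Ndufv1 and Ndufv2 were not called. Ndufs8, which carries iron-sulfur clusters near the ubiquinone site, measured 5222, 4554 and 4299.6 in WT ESC and 8876, 7694 and 6151 in WT EB. These ranges do not overlap, and the log2 fold change was 0.68 ± 0.15 (adjusted p = 0.00416). Ndufs1, the largest subunit, which holds clusters on the path from the flavin, measured 5119.8, 3858 and 3611 in WT ESC and 2741, 3070.2 and 3062 in WT EB. It was lower in all 3 EB arrays, with a log2 fold change of -0.49 ± 0.16 (adjusted p = 0.0255), a call that was lost without WT ESC B21 or WT EB B21. Ndufv1, which binds the flavin, had -0.019 ± 0.12 and Ndufv2 -0.014 ± 0.083.

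The other complex I genes encode accessory subunits, which surround the core and are needed for its assembly or stability. Of 28 accessory genes tested, 11 rose in WT EB and 1 fell, beside 2 and 1 of the 6 core genes, so the accessory genes held about the same share of the rises as of the genes tested. Ndufa13, also known as GRIM-19, measured 6447, 7043 and 6229 in WT ESC and 11237, 10459 and 9418 in WT EB, and had the smallest adjusted p of all subunits, with a log2 fold change of 0.66 ± 0.083 (adjusted p = 0.000204). Ndufb11, an X-linked subunit of the membrane arm, measured 5145, 5482 and 5552 in WT ESC and 8846, 9391 and 8453 in WT EB. In both genes the lowest EB array stood well above the highest ESC array, and for Ndufb11 the change was 0.72 ± 0.11 (adjusted p = 0.000475).

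Ndufa3, in the membrane arm, measured 5449, 5617 and 5024 in WT ESC and 9249, 8659 and 9631 in WT EB, a change of 0.78 ± 0.13 (adjusted p = 0.000719). Its 2 bright probe sets gave nearly the same change, while a dim one with a mean of 91.0 had the opposite sign. Ndufa8, on the intermembrane side, measured 3468, 3148 and 2989 and then 5079, 5414 and 4629.9, with 0.65 ± 0.11 (adjusted p = 0.000737). Ndufa2, in the arm that meets NADH, measured 5364, 4889 and 4976 and then 7253, 6810.4 and 7671, with 0.51 ± 0.11 (adjusted p = 0.00362). For each of these genes all 3 EB arrays exceeded all 3 ESC arrays, as they did for 35.6% of all genes. Also called higher were Ndufs3 (0.45), Ndufa5 (0.71), Ndufb2 (0.48), Ndufb7 (0.44), Ndufb9 (0.39), Ndufc2 (0.22) and Ndufa1 (0.21). The calls for Ndufb7, Ndufb9, Ndufc2 and Ndufa1 were lost without several of the WT arrays taken 1 at a time, while Ndufs3, Ndufa5 and Ndufb2 kept theirs without any 1 array.

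Ndufa7 was the accessory gene that fell. It measured 11266, 11177 and 9870.5 in WT ESC and 8526, 8467 and 8834 in WT EB, with -0.32 ± 0.10 (adjusted p = 0.0235), and the call was lost without any 1 of WT ESC B21, WT ESC J1, WT EB B21 or WT EB J1. With the line as a block, Ndufa1, Ndufa7, Ndufb2, Ndufb7, Ndufb9 and Ndufc2 were no longer called.

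Complex II, the only complex made wholly from nuclear genes and also an enzyme of the citric acid cycle, showed no called change. The WT log2 fold changes were -0.11 ± 0.26 for Sdha, the flavoprotein, 0.15 ± 0.10 for Sdhb, the iron-sulfur subunit, and 0.064 ± 0.17 and 0.16 ± 0.13 for the membrane anchors Sdhc and Sdhd. In TKO they were 0.12 ± 0.24, 0.12 ± 0.090, 0.078 ± 0.16 and 0.064 ± 0.11. Sdha was set apart by line: it measured 5445, 4941 and 4687 in WT ESC, 4443, 4869.9 and 4641 in WT EB, 3069.7, 5013 and 4384 in TKO ESC and 4736, 5581, 2452, 5095 and 5159 in TKO EB. The arrays of line 7-4-1 were the lowest of their group at both stages.

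In complex III the only called gene was Uqcrh, the hinge protein that helps cytochrome c dock. It measured 6568, 7007 and 7133 in WT ESC and 10926, 9817 and 11186 in WT EB, without overlap, and changed by 0.62 ± 0.12 (adjusted p = 0.00208). The catalytic and core subunits were not called: the Rieske iron-sulfur protein Uqcrfs1 had 0.12 ± 0.086, Uqcrc1 -0.25 ± 0.12 and Uqcrc2 0.17 ± 0.089.

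In complex IV, among the forms used in most tissues, Cox6b1 and Cox6a1 rose in WT EB. Cox6b1, at the intermembrane face, measured 11214, 12677 and 12535 in WT ESC and 15813, 15554 and 15119.5 in WT EB, with 0.35 ± 0.080 (adjusted p = 0.00415). Cox6a1 measured 12144, 13022 and 11878 and then 14216, 14277 and 15037, with 0.23 ± 0.079 (adjusted p = 0.0302). Both genes were higher in every EB array than in any ESC array, but the call for Cox6a1 was lost without WT ESC B21, WT ESC R1 or any 1 of the 3 WT EB arrays (adjusted p = 0.0535 to 0.0933). Cox4i1 (0.13 ± 0.074), Cox7a2 (0.077 ± 0.056), Cox7a2l (0.24 ± 0.12) and Cox8a (0.32 ± 0.15) were not called.

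Cox7c was the complex IV gene that fell, in both genotypes and by nearly equal amounts. It measured 346, 347 and 339 in WT ESC and 184, 248 and 138 in WT EB, and 449.8, 359 and 522 in TKO ESC and 278, 333, 230.1, 180.2 and 187 in TKO EB. Every EB array was below every ESC array of its genotype. The log2 fold changes were -0.90 ± 0.28 (adjusted p = 0.0208) in WT and -0.90 ± 0.25 (adjusted p = 0.0142) in TKO, and the gene's other probe set, also dim, gave -1.04 and -0.86. The WT call was lost without WT ESC B21, WT ESC J1, WT EB B21 or WT EB R1 (adjusted p = 0.0535 to 0.0818), and the TKO call without TKO ESC 7-4-1 (0.0502), without TKO ESC Ta1-12 (0.0717) or without line Ta1-12 (0.115).

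Complex V consists of a catalytic head, F1, and a proton channel, Fo. In the head, the small central-stalk subunits rose in WT EB. Atp5e (epsilon) measured 4125, 4624 and 4209.9 in WT ESC and 6179, 5970.4 and 6728 in WT EB, with 0.54 ± 0.11 (adjusted p = 0.00187). Atp5d (delta) measured 8666, 8173 and 7993 and then 10141, 9964 and 10041, with 0.28 ± 0.077 (adjusted p = 0.0111). All EB arrays exceeded all ESC arrays for both genes. With the line as a block the call for Atp5d was lost (adjusted p = 0.0676).

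The large head subunits, which hold the catalytic sites, had negative values. Atp5b (beta) had -0.16 ± 0.065 in WT, which was not called, and -0.19 ± 0.058 (adjusted p = 0.0202) in TKO, which was lost with the line as a block (adjusted p = 0.079), without TKO ESC Dutch (0.0518), without TKO ESC Ta1-12 (0.0831) or without line Ta1-12 (0.13). Atp5a1 (alpha) was called lower in both genotypes, with -0.18 ± 0.058 (adjusted p = 0.0271) and -0.14 ± 0.052 (adjusted p = 0.0459), but its other bright probe set, with a mean of 10115, gave 0.13 and 0.10, so no direction is drawn for this gene. The c-ring genes Atp5g1 (-0.25 ± 0.22), Atp5g2 (-0.097 ± 0.073) and Atp5g3 (0.093 ± 0.072) were not called. With the mean of all its probe sets, Atp5g2 was called lower, at -0.57 (adjusted p = 0.00534) in WT and -0.42 (0.0153) in TKO. Its result thus depends on the probe sets used. Atp5md, a small membrane subunit, rose by 0.34 ± 0.12 (adjusted p = 0.0337), a call lost with the line as a block (adjusted p = 0.0552) and without any 1 WT array except WT EB J1 (0.0505 to 0.131).

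**Figure D2:**
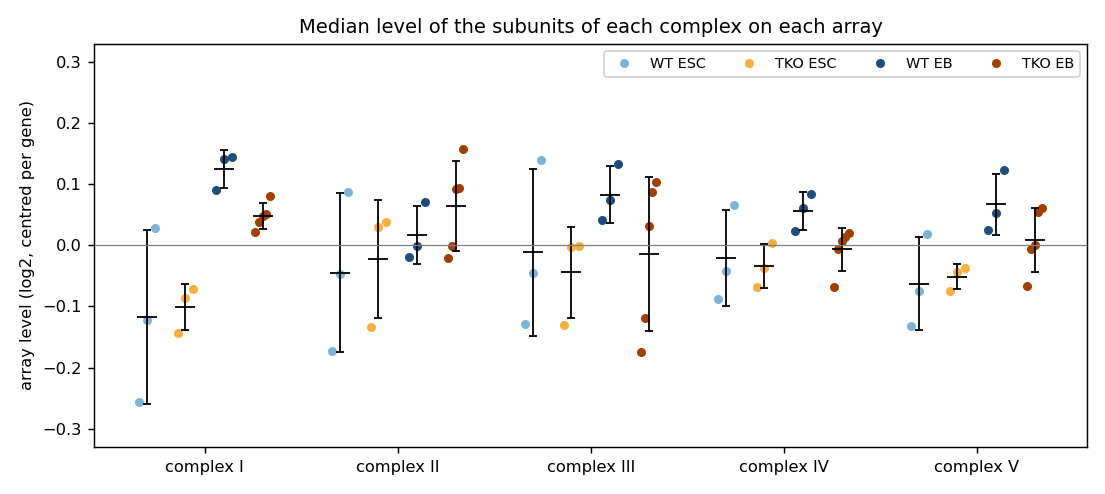
Each point is 1 array: the median, over the subunits of a complex, of the log2 intensity minus the gene's mean over the 14 arrays. Long bars are group means and short-capped lines are ± 1 SD. For complex I all WT EB arrays (0.090 to 0.14) lie above all WT ESC arrays (-0.26 to 0.028). For complex V they do so narrowly (0.025 to 0.12 and -0.13 to 0.018), and for complexes II, III and IV the WT groups overlap.

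The level of a complex on each array showed how far the lines differed. For complex I, the median centred log2 level was -0.12 ± 0.14 (SD, n = 3) in WT ESC, 0.13 ± 0.031 (n = 3) in WT EB, -0.10 ± 0.038 (n = 3) in TKO ESC and 0.048 ± 0.022 (n = 5) in TKO EB. WT ESC B21 was the highest ESC array at 0.028, against -0.12 in J1 and -0.26 in R1. The median over all genes separated the WT groups too, at -0.060, -0.030 and -0.026 in ESC and 0.12, 0.11 and 0.041 in EB. Relative to it, complex I stood at 0.088, -0.093 and -0.23 in WT ESC and 0.026, 0.032 and 0.049 in WT EB. On that scale WT ESC B21 was above all WT EB arrays. For complex V the group means were -0.063 ± 0.076, 0.067 ± 0.050, -0.051 ± 0.020 and 0.0089 ± 0.052 in the same order. Within lines, the median change of all 80 subunits from ESC to EB was 0.031 in B21, 0.20 in J1, 0.22 in R1, 0.038 in 7-4-1, 0.080 in Dutch and 0.16 in Ta1-12. The matching medians over all genes were 0.17, 0.14, 0.074, 0.097, 0.048 and 0.17, so the subunits stood above the rest in J1, R1 and Dutch and below it in B21, 7-4-1 and Ta1-12. Without WT ESC B21 the median change in WT was 0.21.

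Among the forms of complex IV found in particular tissues, Cox6a2, Cox8b, Cox7a1, Cox7b2 and Cox6b2 differed widely between arrays of 1 group. Cox6b2, the brightest of them, spanned 1734 to 6291 in TKO EB. The lung form Cox4i2 (117 to 190 over the 14 arrays) and the testis form Cox8c (340 to 545) varied little. Cox6a2 and Cox8b, the heart and skeletal muscle forms of their subunits, were the only subunit genes called with a change above 2-fold in WT EB, and no subunit was in TKO. For Cox8b and for Cox7a1, another muscle form, the promoter table also holds the widely used form of the same subunit. The 150 bases before the start are shown for these pairs because they differ visibly in CG content, with CG dinucleotides in capitals (RefSeq, GRCm38.p6, 5′ to 3′ along the gene).
Cox8a, used in most tissues, chr19:7217617-7217766, minus strand: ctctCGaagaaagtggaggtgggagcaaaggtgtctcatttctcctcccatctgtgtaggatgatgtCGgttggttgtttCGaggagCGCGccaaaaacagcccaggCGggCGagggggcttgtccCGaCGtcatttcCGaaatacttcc
Cox8b, muscle form, chr7:140900447-140900596, minus strand: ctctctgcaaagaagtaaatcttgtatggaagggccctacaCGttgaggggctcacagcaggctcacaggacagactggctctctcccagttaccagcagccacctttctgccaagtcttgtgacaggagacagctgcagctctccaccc
Cox7a2, used in most tissues, chr9:79759854-79760003, minus strand: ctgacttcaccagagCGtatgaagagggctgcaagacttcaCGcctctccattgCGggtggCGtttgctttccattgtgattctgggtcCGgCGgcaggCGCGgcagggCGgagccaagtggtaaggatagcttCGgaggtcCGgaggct
Cox7a1, muscle form, chr7:30184021-30184170, plus strand: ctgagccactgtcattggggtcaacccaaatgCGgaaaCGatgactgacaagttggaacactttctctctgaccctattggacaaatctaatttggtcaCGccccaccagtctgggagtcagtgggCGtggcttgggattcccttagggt
Cox8a holds 10 CG in this stretch and Cox8b 1, and Cox7a2 holds 11 and Cox7a1 4. Of the 81 genes, 66 were matched in the promoter table, with 71 windows of 250 bases before a start. The median window of a subunit gene held 14 CG, against 6 in all 32851 windows. Windows with 4 or fewer CG made up 44.4% of all windows but 4.23% of those of subunit genes, namely Cox8b, Cox7a1 and Ndufc2. These counts describe the sequence, and no methylation was measured.

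Cox6a2 measured 118, 93.0 and 109 in WT ESC and 741, 363 and 173 in WT EB, and 104, 103 and 103 in TKO ESC and 406, 128, 172, 107 and 249 in TKO EB. The EB arrays were above the ESC arrays in both genotypes, by far the most in WT EB B21. The log2 fold changes were 1.76 ± 0.52 (adjusted p = 0.0155) in WT and 0.87 ± 0.46 (adjusted p = 0.159) in TKO. Cox8b measured 59.4, 54.5 and 44.1 in WT ESC and 243, 145 and 55.5 in WT EB, and 50.2, 42.5 and 34.7 and 121, 69.6, 69.3, 58.3 and 91.0 in the TKO groups. WT EB R1 stayed within the WT ESC range, and the changes were 1.26 ± 0.44 (adjusted p = 0.0346) and 0.91 ± 0.39 (adjusted p = 0.0871). Without WT EB B21 neither WT call held, with 1.24 (adjusted p = 0.0747) for Cox6a2 and 0.78 (0.159) for Cox8b. The Cox8b call was also lost without any 1 WT ESC array or WT EB J1 (0.0595 to 0.0966).

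Muscle markers differed between the same EB arrays. Of 8 heart muscle markers, none was under the floor of 32 on all EB arrays of a group, and their sum ranged from 593 to 1209 in WT ESC, 7515 to 38351 in WT EB, 446 to 859 in TKO ESC and 660 to 50566 in TKO EB. The 5 skeletal muscle markers summed to 752 to 1788, 1679 to 22862, 579 to 853 and 327 to 33217. Tnnt2, cardiac troponin T, measured 5162, 8172 and 1708 in WT EB and 12139.9, 271, 1395, 194 and 1976 in TKO EB, and Myog, the skeletal muscle factor myogenin, 816, 5464 and 117 and 8799, 13.5, 2316, 38.7 and 298. The arrays with the highest Cox6a2 and Cox8b, WT EB B21 and J1 and TKO EB 2-55-2, were also high in these markers, but the order was not the same, since WT EB J1 exceeded B21 in both markers. The part of muscle cells in the result was not tested.

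Cox7a1, the third muscle form, followed another pattern. It measured 903, 803 and 515 in WT ESC and 491, 842 and 663 in TKO ESC, 218, 191 and 235 in WT EB and 151, 556, 72.8, 1776 and 119 in TKO EB. All WT EB arrays were below all WT ESC arrays, while TKO EB Dutch was above every other array and TKO EB 14-14-4 lay in the ESC range. The changes were not called, with -1.75 ± 0.89 (adjusted p = 0.126) in WT and -1.30 ± 0.80 (adjusted p = 0.223) in TKO. Without the TKO EB arrays Dutch and 14-14-4, the 2 with the highest Pou5f1 (2-55-2, also above the WT EB arrays, was kept), both passed the threshold, at -1.75 (0.00116) in WT and -2.57 (9.99e-05) in TKO. Without TKO EB Dutch alone they were -1.75 (0.0253) and -1.98 (0.0104). The spread is shared by all groups in the fit, so leaving out these arrays also changed the WT test. The part of remaining stem cells in this spread was not tested.

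The testis forms were mixed. Cox7b2 measured 143, 71.5 and 68.1 in WT ESC, 74.5, 64.2 and 62.0 in TKO ESC and under the floor of 32 on every EB array except TKO EB Dutch, which read 242. Neither change was called, with -1.47 ± 0.65 (adjusted p = 0.0811) and -0.48 ± 0.58 (adjusted p = 0.544), and since all WT EB arrays were raised to the floor, the size of the WT value is set by it. Of the 5 male germ cell markers, Ddx4 and Dazl also measured 907 and 4564 in TKO EB Dutch, against 30.5, 4.24 and 12.8 and 21.1, 7.15 and 6.53 in WT EB, and both were high in ESC. The marker list summed to 1096 to 2927 in WT ESC, 88.0 to 134 in WT EB, 1332 to 1536 in TKO ESC and 86.9 to 5588 in TKO EB. Its part in the Cox7b2 value was not tested. Cox6b2 measured 1734, 6291, 2333, 5945 and 3328 in TKO EB, highest on 14-14-4 and Dutch. Cox6b2 (-0.15 ± 0.41) and Cox8c (-0.38 ± 0.20) were not called in WT, nor was the lung form Cox4i2 (-0.39 ± 0.23).

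**Figure D3:**
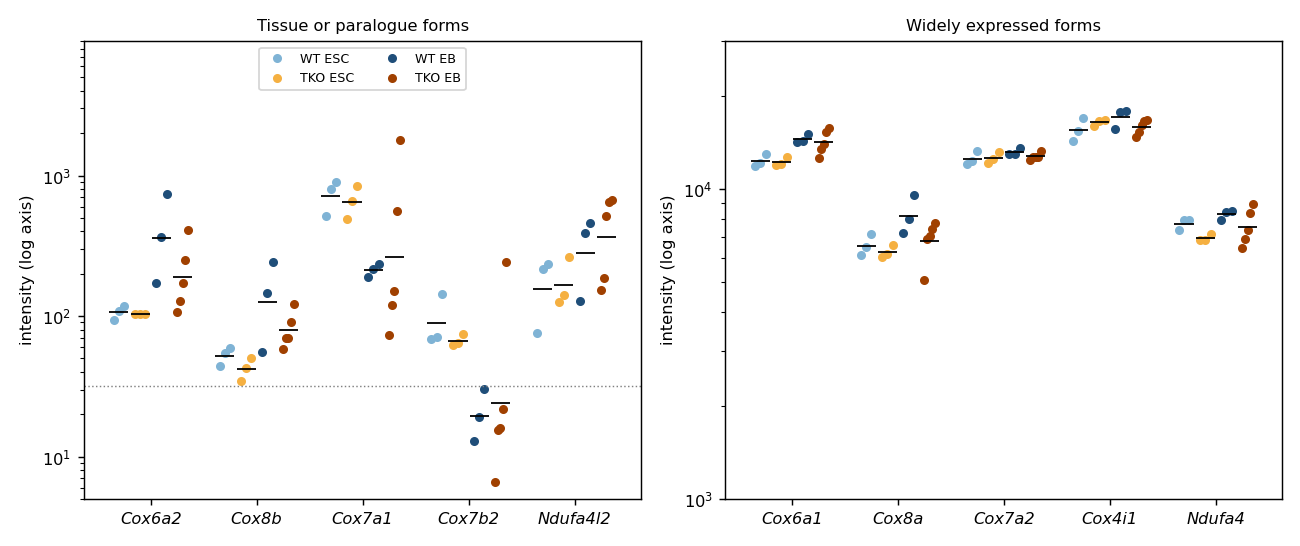
Intensities on a log axis of 5 tissue or paralogue forms (left) and 5 widely expressed forms (right), 1 point per array and 1 bar per group mean of the log2 values; the dotted line is the floor of 32. The forms on the left vary widely between EB arrays of 1 group, as in Cox7a1 with 72.8 to 1776 in TKO EB, and those on the right stay within a narrow band, apart from Cox8a in TKO EB 7-4-1.

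Ndufa4l2, a paralogue of Ndufa4 that is induced under hypoxia, measured 216, 234 and 75.9 in WT ESC, 459, 387 and 127 in WT EB, 126, 261 and 141 in TKO ESC and 154, 517, 186, 653 and 666 in TKO EB. The groups overlapped at both genotypes, and neither change was called, with 0.85 ± 0.68 (adjusted p = 0.323) and 1.13 ± 0.61 (adjusted p = 0.167). With the line as a block the TKO change was 1.38 and passed (adjusted p = 0.033). The hypoxia response markers summed to 14442 to 18730 in WT ESC, 14457 to 22310 in WT EB, 12788 to 20742 in TKO ESC and 12249 to 24849 in TKO EB. The sums hide changes of single markers: of 5, 2 were called higher and 1 lower in each genotype. Their median log2 fold change was 0.90 in WT and 0.77 in TKO, against 0.13 and 0.086 over all genes. Their part in the Ndufa4l2 values was not tested. Ndufa4 itself had 0.10 ± 0.11 in WT and 0.12 ± 0.096 in TKO.

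In TKO EB against TKO ESC, 36% of all genes were called, 21% higher and 15% lower. All EB arrays were above all ESC arrays in 22.3% of all genes and below them in 14.6%. Of the 80 subunit genes 15 were called, 12 higher (15%) and 3 lower (3.75%), both shares under the background. The median log2 fold change was 0.10, against 0.086 over all genes. Of the 2872 genes in the top 20% by mean level, 23.5% were called higher and 17.7% lower, with a median of 0.017. The 71 subunits among them had 12 higher and 2 lower, with a median of 0.11. In complex I 8 of 34 genes rose (23.5%, against 21% of all genes) and none fell. In complexes II and III none was called, in complex IV 2 rose and 1 fell, and in complex V 2 rose and 2 fell. After quantile normalization, which moved the median of all genes from 0.086 to -0.037, 15 were called, 8 higher and 7 lower, and in complex I 5 higher and 2 lower. Without line Ta1-12, whose arrays go against their label in Rbl1, 5 were called, all higher: Atp5e, Ndufa2, Ndufa3, Ndufa8 and Ndufb11. Without TKO ESC Dutch the count was 9 and without TKO ESC Ta1-12 it was 8. Leaving out the TKO EB arrays Dutch and 14-14-4 gave 22, of which 15 were higher. As in WT, the share of all genes called in these settings is not given beside these counts.

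The calls of the genotypes overlapped in part. Of the 25 subunits called in WT and the 15 called in TKO, 13 were called in both, all with the same sign, which is 52% of the WT calls and 86.7% of the TKO calls. Over all genes 4232 were called in both, or 67.2% and 81.9%. The WT and TKO comparisons share no arrays. Ndufb11 measured 4755, 5574 and 5731 in TKO ESC and 8019, 8043, 8296, 7011 and 9473 in TKO EB, with 0.61 ± 0.096 (adjusted p = 0.000641). Ndufa3 measured 6322, 5241 and 5019 and then 9165, 9189, 8713, 6643 and 8531, with 0.61 ± 0.11 (adjusted p = 0.00158). In both genes TKO EB Dutch was the lowest EB array, and it was still above every TKO ESC array.

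Ndufa8 (0.47 ± 0.095, adjusted p = 0.00257), Ndufa2 (0.42 ± 0.10, adjusted p = 0.00677) and Atp5e (0.43 ± 0.094, adjusted p = 0.00428) also rose, with no TKO EB array in the range of TKO ESC. Ndufa5 (0.50), Ndufs8 (0.44), Ndufs3 (0.27), Ndufa13 (0.28), Cox6a1 (0.21) and Atp5d (0.19) were also called higher, and the calls for Ndufa5, Ndufs3, Cox6a1 and Atp5d were lost with the line as a block. Leaving out TKO ESC 7-4-1 ended the call for Ndufa5 (adjusted p = 0.0762), and leaving out any 1 TKO ESC array, TKO EB 2-55-2 or TKO EB 14-14-4 ended that for Cox6a1 (0.053 to 0.1). The call for Atp5d was lost without any 1 of 11 of the 14 arrays (0.0509 to 0.204). Ndufs8 was no longer called without TKO ESC Dutch, TKO ESC Ta1-12 or TKO EB 2-55-2, and Ndufs3 without those or without WT ESC J1, TKO EB 7-4-1 or TKO EB Ta1-12. The 2 subunits called in TKO and not in WT were Atp5b, described above, and Cox7a2l. Cox7a2l measured 5969, 6734 and 6069 in TKO ESC and 6631, 8560.2, 7799.6, 9795 and 9461 in TKO EB, with 0.42 ± 0.11 (adjusted p = 0.0109), against 0.24 ± 0.12 (adjusted p = 0.134) in WT. The groups overlapped, and without line Ta1-12 the adjusted p was 0.0759.

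The change from ESC to EB was compared between the genotypes by the interaction term. Of all 14360 genes 0 were called (0%), as were 0 of 80 subunits, with 519 genes and 2 subunits at an unadjusted p under 0.05. The 2 were Ndufa13, with -0.37 ± 0.11 (adjusted p = 0.975), and Uqcrh, with -0.39 ± 0.17 (adjusted p = 0.975), both rising less in TKO lines by value. The median of the 80 interaction terms was -0.076, against -0.047 over all genes. The largest interaction terms of the subunits lay between -0.89 and 1.00, and with this number of arrays differences of that size did not pass.

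Undifferentiated cells of the 2 genotypes had nearly equal levels by value. In TKO ESC against WT ESC, limma called 0 of 14360 genes (0%) and 0 subunits, with 394 genes and 0 subunits at an unadjusted p under 0.05. The median over the subunits was 0.0061, against -0.025 over all genes, and the values ran from -0.41 to 0.35. In 5 subunit genes the arrays of the groups did not overlap: Cox7a2l, Ndufa2 and Ndufa4 were lower on all TKO ESC arrays, and Cox7c and Ndufb6 higher. The background was 7.35% of all genes lower and 4.78% higher. Cox7a2l had the smallest unadjusted p, with -0.21 ± 0.12. These comparisons share their arrays with those of differentiation above.

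In embryoid bodies the subunit genes tended to lower values in TKO, as did all genes. Of 14360 genes limma called 0 (0%) and of 80 subunits 0, with 2027 genes and 7 subunits at an unadjusted p under 0.05. The median was -0.058, against -0.10 over all genes. In 4 subunits every TKO EB array was below every WT EB array: Ndufa13, Cox6b1, Ndufa1 and Atp5md. The background of such lower genes was 3.04%, and of higher genes, of which there was no subunit, 0.877%. Ndufa13 measured 11237, 10459 and 9418 in WT EB and 8096, 7844, 7829.6, 8229.95 and 8952 in TKO EB, with a difference of -0.34 ± 0.074 (adjusted p = 0.304). Uqcrh measured 10926, 9817 and 11186 and 7606, 8423, 7636, 7075 and 10428, with -0.38 ± 0.11 (adjusted p = 0.304). TKO EB Ta1-12 was the highest TKO EB array of both genes. Without line Ta1-12 both were called lower, and without the TKO EB Ta1-12 array Cox6b1 was called as well. The share of all genes called in these settings is not given here, so these calls do not single out the subunits.

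Lists of genes that serve the chain but are not its subunits were read from the same fit. In WT EB, 27 of 76 mitochondrial ribosomal proteins fell and 4 rose, with a median log2 fold change of -0.35. Of 21 regulators of mitochondrial biogenesis 11 fell and 1 rose, with a median of -0.66. The background of all genes was 17.4% lower and 26.5% higher with a median of 0.13. Of the top 20% of genes by mean level, 25% were lower and 26.5% higher, with a median of -0.00048. No background matched in level to these lists was formed. The subunits had 4 of 80 lower with a median of 0.15. The lists and the subunits were not tested against each other. Without WT ESC B21 the ribosomal count was 17, of which 15 fell.

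**Figure D4:**
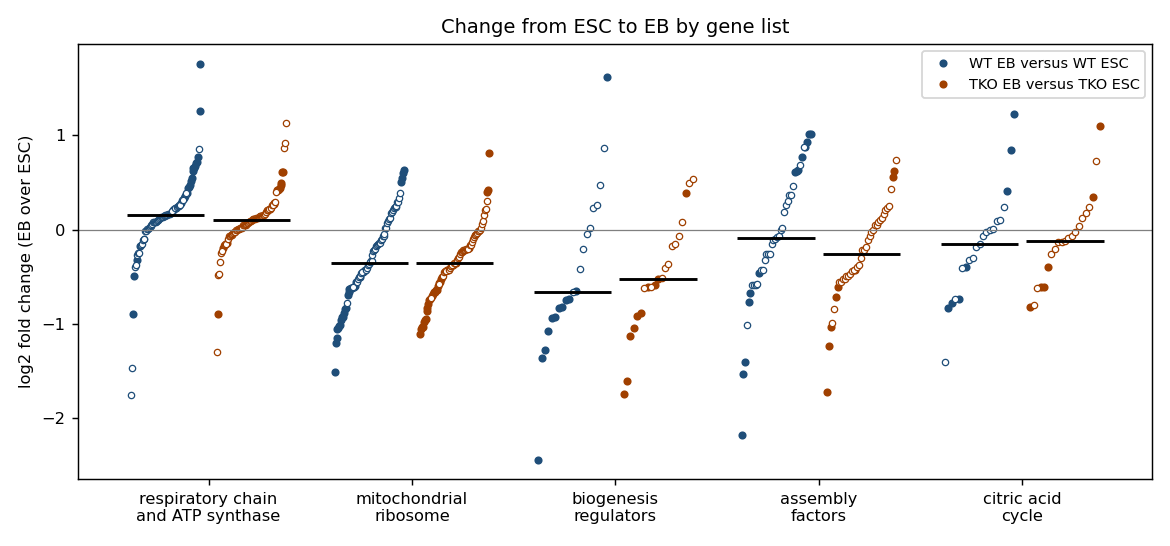
Log2 fold changes of EB over ESC for the subunit genes and 4 lists of related genes, 1 point per gene, blue for WT and orange for TKO. Filled points were called and bars are medians: those of the subunits lie at 0.15 and 0.10, those of the mitochondrial ribosome at -0.35 in both genotypes and those of the regulators at -0.66 and -0.53.

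Among the regulators, Nrf1, a transcription factor of many respiratory genes, measured 1020.2, 995 and 1174 in WT ESC and 142, 204 and 257 in WT EB. It was lower in all EB arrays, with -2.44 ± 0.47 (adjusted p = 0.00177). Pprc1, a coactivator of the PGC-1 family, had -1.07 ± 0.19 (adjusted p = 0.00113). The mitochondrial DNA-binding proteins Ssbp1 (-0.75 ± 0.15, adjusted p = 0.00251) and Mterf1a (-0.93 ± 0.22, adjusted p = 0.00484) also fell. The Ssbp1 call was lost with the mean of all its probe sets (-0.32, adjusted p = 0.124). Tfam, which packages mitochondrial DNA, and Ppargc1a, the coactivator PGC-1 alpha, were named after their values were seen: Tfam fell, with -0.73 ± 0.18 (adjusted p = 0.00693), and Ppargc1a was the regulator that rose, with 1.62 ± 0.51 (adjusted p = 0.0216). In TKO EB 9 of the 21 fell and 1 rose (median -0.53), led by the mitochondrial helicase gene Twnk (-1.05 ± 0.18, adjusted p = 0.00101), and Nrf1 had -1.75 ± 0.42 (adjusted p = 0.00663). With the line as a block 5 regulators were called in TKO, all lower, and without TKO ESC 7-4-1 there were 6.

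NRF1 binds a palindrome rich in CG, so the promoter windows of the subunits were searched for it. The letters GCATGCGC, on either strand, were found in 741 of the 32851 windows (2.26%) and in 7 of the 71 windows of subunit genes (9.86%): Atp5g2, Atp5k, Atp5l, Cox6a1, Ndufa6, Ndufa8 and Sdhb. Matches on both strands, as in the whole palindrome, were present in 0.831% and 4.23%. The windows are shown with the match in capitals, for the 3 genes matched on both strands and for Ndufa8, the one of the other genes that was called in both genotypes.
Cox6a1, chr5:115349083-115349150, minus strand: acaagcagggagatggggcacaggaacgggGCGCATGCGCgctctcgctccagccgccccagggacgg
Atp5k, chr5:108434412-108434479, minus strand: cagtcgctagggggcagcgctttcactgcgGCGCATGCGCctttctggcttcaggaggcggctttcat
Atp5g2, chr15:102671052-102671119, minus strand: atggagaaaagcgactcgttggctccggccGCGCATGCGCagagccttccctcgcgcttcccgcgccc
Ndufa8, chr2:36049339-36049376, minus strand: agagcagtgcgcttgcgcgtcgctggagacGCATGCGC
The matches begin 162, 50, 42 and 8 bases before the start of Cox6a1, Atp5k, Atp5g2 and Ndufa8. Of these genes, Cox6a1 and Ndufa8 rose in WT EB, while Atp5k (0.16 ± 0.084) and Atp5g2 (-0.097 ± 0.073) were not called. As given above, Atp5g2 was called lower with the mean of all its probe sets. A core of ETS factor sites, CCGGAAG, was present in 16.9% of subunit windows and 6.91% of all. The CCAAT box, as GATTGG on either strand, was in 16.9% and 14.6%, and the oestrogen-related receptor motif TCAAGGTCA in 1.41% (Atp5g3) and 0.387%. The NRF1 and ETS letters hold CG, and subunit windows hold more CG than all windows (median 14 against 6). No background of like CG content was used, so the part of CG content in these shares was not tested. A match does not show that a factor binds there.

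Of the mitochondrial ribosomal proteins, Mrps27 (-1.15 ± 0.21, adjusted p = 0.00121), Mrps5 (-1.51 ± 0.29, adjusted p = 0.00187), Mrpl42 (-0.67 ± 0.13, adjusted p = 0.00204) and Mrps12 (-1.05 ± 0.21, adjusted p = 0.00209) had the smallest adjusted p in WT, and all 4 fell. In TKO EB 28 of 76 fell and 3 rose, with a median of -0.35, and Mrps27 had -1.03 ± 0.18 (adjusted p = 0.00133). With the line as a block 10 of these were called in TKO, 9 of them lower, and the same count remained without line Ta1-12. Without TKO ESC 7-4-1 it was 20.

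Of 40 assembly factors, which build the complexes without staying in them, 8 rose (20%) and 6 fell (15%) in WT EB, with a median of -0.092, against 26.5% and 17.4% of all genes. In TKO EB 2 rose (5%) and 6 fell (15%), with a median of -0.26, against 21% and 15% of all genes. Ecsit and Ndufaf6, both needed for complex I, measured 689.7, 803 and 835 and 1394, 1817 and 2089 in WT ESC and 297, 344 and 246 and 306, 381 and 491 in WT EB. Ecsit fell, with -1.40 ± 0.22 (adjusted p = 0.000673) and Ndufaf6 with -2.18 ± 0.40 (adjusted p = 0.0014). Sdhaf2, which adds the flavin to Sdha, rose by 1.01 ± 0.22 (adjusted p = 0.00375), and Cox19, a copper handling factor of complex IV, by 1.01 ± 0.23 (adjusted p = 0.00444). In TKO, Ecsit had -1.73 ± 0.20 (adjusted p = 0.0001).

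Of 20 electron carriers, inhibitor and uncoupling proteins, 4 rose (20%) and 6 fell (30%) in WT EB, with a median of -0.24, and 3 rose (15%) and 5 fell (25%) in TKO EB, with a median of -0.22. Etfdh, which passes electrons from fatty acid oxidation to ubiquinone, measured 666, 1000.4 and 1063 in WT ESC and 2528, 2718 and 3045 in WT EB, a rise of 1.63 ± 0.22 (adjusted p = 0.000281). Etfb, which feeds it, rose by 0.57 ± 0.13 (adjusted p = 0.00541), and Slc25a4, the ADP/ATP carrier of heart and muscle, by 0.56 ± 0.13 (adjusted p = 0.00572). Coq7, an enzyme of ubiquinone synthesis, fell, with -0.64 ± 0.16 (adjusted p = 0.00659). In TKO, Etfdh had 1.37 ± 0.19 (adjusted p = 0.000332).

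Of 21 citric acid cycle and pyruvate dehydrogenase genes, 3 rose (14.3%) and 4 fell (19%) in WT EB, with a median of -0.15, and 2 rose (9.52%) and 4 fell (19%) in TKO EB, with a median of -0.12. Citrate synthase, Cs, rose by 0.41 ± 0.12 (adjusted p = 0.0178) and Pdk2, a kinase that inhibits pyruvate dehydrogenase, by 1.23 ± 0.30 (adjusted p = 0.00656). The Cs call was lost with the mean of all probe sets (0.14, adjusted p = 0.313) and after quantile normalization (0.26, 0.0951). It was also lost without WT ESC B21 (0.0762) or WT EB J1 (0.0644). Idh3a, of the NAD-linked isocitrate dehydrogenase, fell, with -0.83 ± 0.18 (adjusted p = 0.00358) and Dlat, of pyruvate dehydrogenase, with -0.73 ± 0.19 (adjusted p = 0.009). Both calls were lost with the mean of all probe sets, at -0.406 (adjusted p = 0.0585) for Idh3a and -0.411 (0.0518) for Dlat. In TKO, Idh2 rose by 1.10 ± 0.24 (adjusted p = 0.0036), and its sign turned when all probe sets of the gene were averaged (-0.081).

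The remaining marker lists give the makeup of the cultures these levels come from. Fibroblast or feeder markers summed to 384 to 912 on all ESC arrays. Their sum was 71248 to 91082 in WT EB, while TKO EB ranged from 22985 to 94052. Visceral endoderm markers were between 280 and 1547 in ESC, between 16979 and 41771 in WT EB, and between 9924 and 51021 in TKO EB. Neural markers lay between 1230 and 1861 in ESC, between 1300.2 and 3613 in WT EB, and between 629 and 12977 in TKO EB. In the same order, blood markers spanned 123 to 182, 693 to 1007 and 179 to 1020, and brown fat markers 75.3 to 161, 65.9 to 264 and 86.2 to 353. Their part in the changes of the subunit genes was not tested.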

How the data were processed

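Gene expression was measured once per sample on 14 1-colour Affymetrix arrays. The authors deposited 1 table of linear intensities for 45101 probe sets, and the labels give neither the software nor how probes were summarised and scaled. Probe sets were named through the platform annotation: 34958 had 1 symbol, 932 had several and 9211 none, and only the first kind was used. Where a gene had several probe sets, the brightest by mean over all 14 arrays was used, and 9 probe sets naming a subunit together with another symbol were left out. Intensities were raised to a floor of 32 and log2 transformed. Genes with a value over the array's 40th percentile on 3 or more arrays (14360) were fitted with limma 3.58.1 in R 4.3.3 (lmFit with 1 mean per group over all 14 arrays, contrasts, eBayes with trend), with Benjamini-Hochberg adjustment over all of them in each of 5 comparisons. Fold changes are given as log2 ± standard error. The procedure was tested on simulated data.

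The fit was repeated after quantile normalization, with a floor of 16, with log2(value + 16), without the filter, with the mean of all probe sets of a gene, without the trend, with array weights, with the 2 groups of a comparison alone, with the cell line as a block, without line Ta1-12, without the TKO EB arrays Dutch and 14-14-4, and without each array in turn. Samples of the same cell line are paired by the labels. Deviations of same-line arrays from their group means correlated between -0.077 and 0.20 over all genes and between -0.045 and 0.49 over the subunits. p-values measure the spread between lines of a group.

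Named were up to 6 called subunits per complex with the smallest adjusted p in a comparison, the tissue and paralogue forms, the complex II genes, and up to 4 called genes per related list. Other names were added after their values were seen. The members and the lists were chosen with earlier results of these data known. The related lists were regulators of mitochondrial biogenesis, assembly factors, electron carriers, citric acid cycle genes and mitochondrial ribosomal proteins. Promoter sequences came from RefSeq, GRCm38.p6.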

Additional observations from a re-analysis of the deposited data

Results flagged for a closer look

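Within the 5 TKO EB arrays, 36 named subunits and 6 levels of complexes were examined for an array far from the other 4, and 5 subunits had one. Chance gives about 1 in 20 such groups. Cox7b2 read 242 in TKO EB Dutch and 6.55 to 21.7 on the other 4 arrays, all under the floor. Since values were raised to the floor first, those 4 were equal, and any value over the floor would have been flagged. The rate of 1 in 20 does not apply to Cox7b2. Ndufa3 read 6640 in TKO EB Dutch, against 8531 to 9189. Sdha read 2450 in TKO EB 7-4-1, against 4736 to 5581, and Cox8a read 5110 on the same array, against 6910 to 7799. Atp5e read 6550 in TKO EB Ta1-12, against 5106 to 5460.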

How the results depend on the processing

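In WT EB against WT ESC, 25 subunits were called. The count was 16 without the trend, 41 with array weights and 16 with the replicate block by cell line, in which arrays of 1 line are paired. It ranged from 14 to 29 without each array in turn. In TKO EB against TKO ESC, 15 were called, with 9 without the trend, 24 with array weights, 10 with the replicate block and 5 without line Ta1-12. The range without each array was 8 to 22. The median change of the subunits was 0.05 in WT and 0.0388 in TKO after quantile normalization, and it ranged from 0.0998 to 0.207 and from 0.0708 to 0.108 without each array. For mitochondrial ribosomal proteins the ranges were 17 to 35 in WT and 20 to 37 in TKO, with 10 in TKO both under the replicate block and without line Ta1-12. For regulators of biogenesis they were 8 to 14 and 6 to 11, with 5 in TKO under the replicate block. The calls in TKO EB against WT EB ranged from 0 to 3 without each array and were 2 without line Ta1-12. Under the other settings run, these counts stayed within 1.5 times. Of the results named, only Idh2 in TKO turned its sign from a call, at -0.0813 with the mean of all probe sets. Of 16 subunits named and called in WT, 10 kept the call without each array in turn, and 7 of 13 in TKO. The share of all genes called under each setting is not given, so a change in these counts does not single out the genes counted. The cause of these differences was not tested.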
